A study of Saccharomyces cerevisiae with 24 samples.

Results

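Molecular chaperones bind unfolded or newly made proteins and help them reach or regain their folded state. The report covers 37 chaperone genes of the budding yeast Saccharomyces cerevisiae among the 5449 genes with a named probe set on an Affymetrix expression array. The members were chosen by gene symbol in the platform table, with the brightest probe set of each gene, and all 37 listed symbols were found. They fall into 6 classes by role and place: 8 heat-inducible genes, 12 genes of the constitutive cytosolic Hsp70 and Hsp90 systems with their co-chaperones, 5 mitochondrial genes, 3 ribosome-bound genes, 8 subunits of the CCT ring and KAR2 of the endoplasmic reticulum. The 24 arrays came from 8 groups of 3, which the series design calls biological replicates: a strain lacking both SNF1 and TOR1 (snf1Δtor1Δ), single deletions of each (snf1Δ and tor1Δ) and a reference strain labelled wild type, each in ammonia-limited (N-lim) and in glucose-limited (C-lim) medium. Every culture was an aerobic bioreactor culture at 30 °C, pH 5.0 and a dilution rate of 0.1 per hour, sampled at steady state. Strain background, mating type and the way the genes were deleted were not given in the sources used here, and each strain may be 1 clone.

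The kinase Snf1, the AMPK of yeast, is needed to switch to less favoured carbon sources when glucose runs low. The kinase Tor1 works in TOR complex 1, which ties growth to the nutrient supply. Hsp70 chaperones bind short exposed stretches of a protein and release them in a cycle driven by ATP, with J-domain proteins that start the cycle and exchange factors that end it. Hsp90 takes over partly folded clients such as kinases, helped by a series of co-chaperones. Many of these genes are under the heat shock factor Hsf1, and part of them also under the general stress factors Msn2 and Msn4, so in yeast they are known to answer to heat, entry into stationary phase and nutrient supply. Other chaperones follow protein synthesis: the ribosome-bound Hsp70 proteins receive nascent chains, and the CCT ring folds actin and tubulin.

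Deposited values are on the log2 scale of the RMA method, so a difference of 1 is a doubling of signal. SNF1 averaged 2.15 in each of the 4 groups that lack it, against 8.75 to 8.95 in the others, and TOR1 averaged 2.27 in the groups that lack it, against 6.94 to 7.86 in the others, so every array carried the signal its genotype label calls for. Arrays of 1 group correlated across all genes with r between 0.9934 and 0.9987, and array medians lay between 7.79 and 7.97. The 7 a-specific mating genes, looked up to see which cells the cultures held, were higher in N-lim in all 4 strains, with group means over the list of 11.04 to 11.38 in N-lim and 8.46 to 10.43 in C-lim. Of the 4 alpha-specific genes, 3 were higher in N-lim in all 4 strains, and the list averaged 6.0 to 6.68 in N-lim and 4.61 to 5.07 in C-lim. Group means of MF(ALPHA)1 ran from 9.59 to 11.99 in N-lim and from 4.54 to 6.17 in C-lim. Those of SAG1 ran from 6.72 to 7.33 in N-lim and from 6.05 to 6.26 in C-lim. MF(ALPHA)2, also counted as higher, lay near the floor of the scale at 2.26 to 2.37, so its differences were slight. STE3 was lower in N-lim in all 4 strains, with group means of 4.33 to 5.37 in N-lim and 5.38 to 5.60 in C-lim. The part of these shifts in the chaperone values was not tested. In a bulk culture, fewer cells that express a gene and less RNA per cell cannot be told apart.

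Arrays of 1 group differed in whole chaperone classes, and 4 arrays were singled out. In replicate 10 of the C-lim reference, 0 of 8 heat-inducible genes lay above the group mean, with a median deviation of -0.27, and 0 of 5 mitochondrial genes did. In replicate 3 of C-lim snf1Δtor1Δ, again 0 of 8 heat-inducible genes lay above their group mean, with a median deviation of -0.21. The same held for replicate 7 of C-lim tor1Δ, by less, with a median deviation of -0.12, and there 0 of 5 mitochondrial and 8 of 8 CCT genes lay above the mean. Replicate 9 of N-lim tor1Δ ran the other way, with 7 of 8 heat-inducible genes above the group mean by a median of 0.16 and 0 of 8 CCT genes above it, at a median of -0.19. Other arrays deviated by similar amounts. All 8 heat-inducible genes lay above the group mean in replicate 9 of the C-lim reference, by a median of 0.17, and in replicate 9 of C-lim tor1Δ, by 0.10. Replicate 10 of C-lim snf1Δ had 6 of 8 above, by a median of 0.13, and 8 of 8 CCT genes. The number of arrays limits the precision, and results that rest on 1 of the 4 arrays singled out are also given without it.

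The medium and the SNF1 deletion each moved a large share of the chaperone genes, as they did of all genes, whereas the TOR1 deletion alone moved almost none. A gene counted as higher or lower when its limma p-value, adjusted by Benjamini-Hochberg over all 5449 genes, was under 0.05. In N-lim against C-lim, 5 chaperone genes were higher and 12 lower in snf1Δtor1Δ (35.3% and 23.2% of all genes), and 8 were higher and 8 lower in snf1Δ (32.4% and 23.0% of all genes). In tor1Δ 6 were higher and 18 lower (37.4% and 27.5% of all genes), and in the reference 9 were higher and 20 lower (41.5% and 25.7% of all genes). The share of lower chaperone genes was thus above the background share in snf1Δtor1Δ, tor1Δ and the reference, with a median chaperone change of -0.06 in snf1Δtor1Δ, -0.15 in tor1Δ and -0.23 in the reference beside all-gene medians of 0.06, 0.05 and 0.08. Centring every array on its median moved the all-gene median of the reference comparison by -0.11 and its chaperone split to 3 higher and 21 lower, so small rises in N-lim reference cultures are relative to this shift. Across the 4 strains, 7 chaperone genes were lower in N-lim in every one (HSP10, HSP30, HSP60, HSP78, SSA3, STI1 and AHA1) and 2 were higher in every one (SSA2 and KAR2).

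Against the reference in C-lim, 15 chaperone genes were higher and 12 lower in snf1Δtor1Δ (42.7% and 18.8% of all genes), and 14 were higher and 17 lower in snf1Δ (40.5% and 21.6% of all genes). In N-lim, 17 were higher and 0 lower in snf1Δtor1Δ (23.9% and 16.4% of all genes), and 7 were higher and 0 lower in snf1Δ (14.1% and 17.0% of all genes), where limma without adjustment put 0 below an unadjusted p of 0.05 on the lower side in snf1Δtor1Δ and 2 in snf1Δ. Median-centred arrays changed the split of snf1Δtor1Δ to 9 higher and 13 lower in C-lim and to 11 higher and 1 lower in N-lim. The tor1Δ cultures stood near the background of 0.606% higher and 0.459% lower in C-lim, with 0 chaperone genes called. In N-lim they stood near that of 0.716% higher and 2.2% lower, with 1 called, HSP31. At an unadjusted p under 0.05 in limma, 2 were higher and 0 lower in C-lim, and 6 were higher and 0 lower in N-lim. The share of all genes at an unadjusted p under 0.05 was not counted for any comparison, so such counts have no background beside them. The map of changes shows the split by class.

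**Figure D1:**
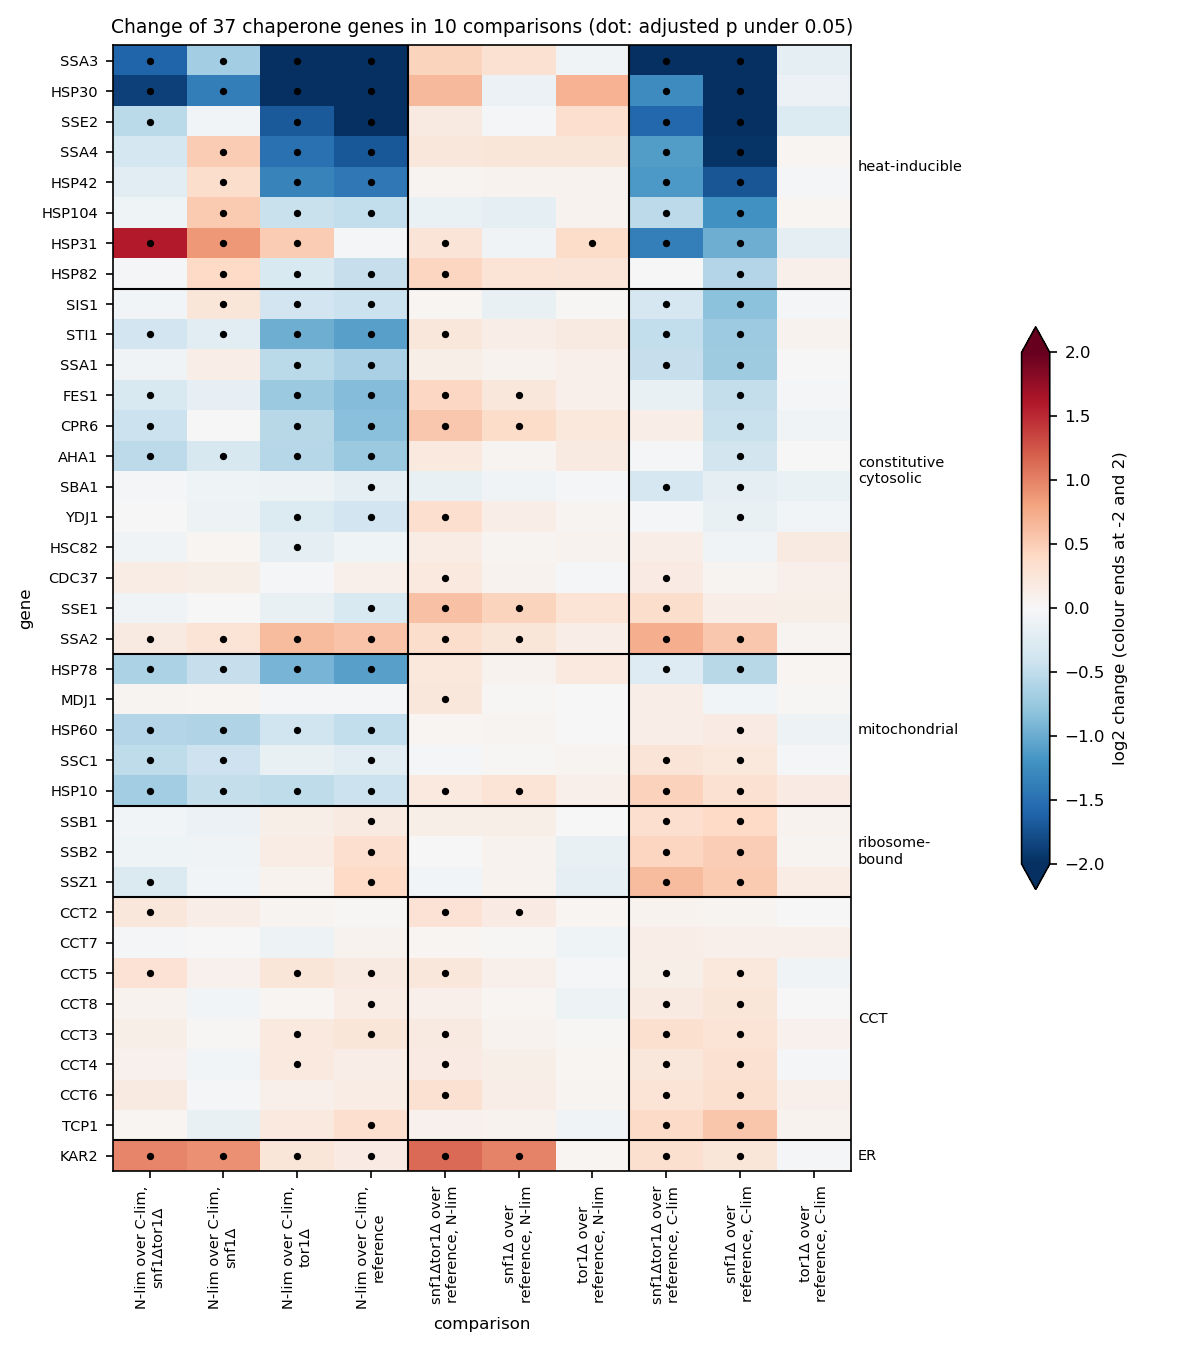
Log2 change of each of the 37 chaperone genes (rows, by class) in 10 comparisons (columns), coloured from blue (lower) to red (higher) with the colour ending at -2 and 2, and with a dot where the adjusted p was under 0.05. Blue runs through the heat-inducible rows in the C-lim columns of snf1Δtor1Δ and snf1Δ, and the 2 tor1Δ columns hold a single dot, at HSP31 in N-lim.

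Most heat-inducible genes were highest in the C-lim cultures that carried SNF1. In the reference, 0 of 8 were higher and 7 lower in N-lim (41.5% and 25.7% of all genes), with a median change of -1.56. In tor1Δ 1 was higher and 7 lower (37.4% and 27.5% of all genes), with a median of -1.42. SSA3, a cytosolic Hsp70 gene known to be induced as growth slows, had 6.87, 6.32 and 6.18 in N-lim reference cultures, against 12.32, 11.88 and 12.31 in C-lim reference cultures. The N-lim values lay around the 25th percentile of the mean levels of all genes, 6.66, so SSA3 was a dim probe set in N-lim. The change was -5.71 ± 0.21 (SE, adjusted p = 3.7e-14) in the reference and -5.60 ± 0.21 (adjusted p = 4.9e-14) in tor1Δ.

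HSP30, which encodes a plasma membrane protein that restrains the proton pump Pma1, had 8.30, 8.42 and 8.24 in N-lim reference cultures, against 12.38, 11.71 and 12.17 in C-lim reference cultures. It changed by -3.77 ± 0.31 (adjusted p = 4.1e-09). In tor1Δ it had 10.08, 8.50 and 8.47 in N-lim, against 11.87, 12 and 12.06 in C-lim, and the first of these N-lim values belongs to replicate 9, which lay apart from the other two. The change in tor1Δ was -2.96 with this array and -3.49 without it. SSE2, an Hsp110 nucleotide exchange factor, changed by -2.28 ± 0.20 in the reference, SSA4, a heat-induced Hsp70, by -1.70 ± 0.18, and HSP42, a small heat shock protein that gathers misfolded proteins, by -1.43 ± 0.12. HSP104, the disaggregase that pulls proteins out of aggregates, changed by -0.49 ± 0.08 (adjusted p = 3e-05), and HSP82, the inducible Hsp90, by -0.46 ± 0.11 (adjusted p = 0.00085). HSP31, of the DJ-1 family of glyoxalases, was the member of this class without a call, at -0.04 ± 0.09 (adjusted p = 0.75).

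**Figure D2:**
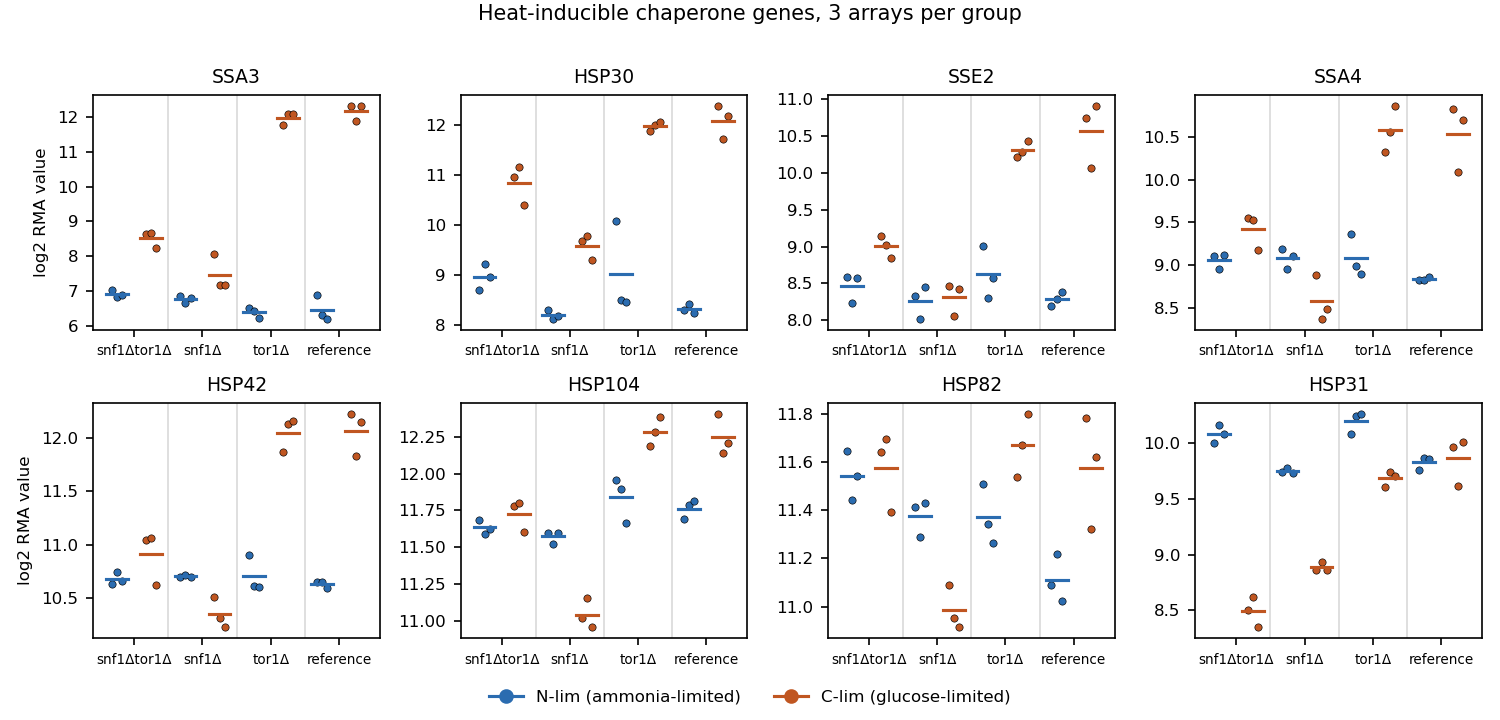
Log2 RMA value (vertical axis) of the 8 heat-inducible genes in the 3 arrays (points) of each strain, N-lim left in blue and C-lim right in orange, with lines at group means and a vertical axis of its own per gene. For SSA3 the C-lim points of tor1Δ and reference lie between 11.77 and 12.32, and all other points lie at 8.66 or below.

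In C-lim the whole class was lower in snf1Δ. All 8 genes were lower in C-lim snf1Δ than in the C-lim reference, with no overlap between the arrays of the groups, as for 61.6% of all genes, and a median of -1.84 beside 0.10 for all genes. Of all genes 21.6% were lower there. SSA3 had 8.05, 7.18 and 7.17 in C-lim snf1Δ, against 12.32, 11.88 and 12.31 in the C-lim reference, a change of -4.70 ± 0.21 (adjusted p = 2.1e-12). HSP30 changed by -2.50 ± 0.31, SSE2 by -2.25 ± 0.20, SSA4 by -1.96 ± 0.18 and HSP42 by -1.72 ± 0.12. HSP104 had 11.02, 11.15 and 10.96 in C-lim snf1Δ, against 12.40, 12.14 and 12.21 in the C-lim reference, so that its highest snf1Δ array lay about 1 unit below the lowest reference array, and it changed by -1.21 ± 0.08 (adjusted p = 4.3e-10). HSP31 and HSP82 changed by -0.98 ± 0.09 and -0.59 ± 0.11. Without replicate 10 of the reference, the count remained at 8 lower, with a median of -2.01. It was also 8 lower with any other single array left out.

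In N-lim no gene of the class was called in snf1Δ. The median change in snf1Δ was 0.02, and 0 of 8 genes were called in either direction, with 1 higher and 1 lower at an unadjusted p under 0.05. SSA3 had 6.86, 6.65 and 6.78 in N-lim snf1Δ, against 6.87, 6.32 and 6.18 in the N-lim reference, and the groups overlapped. The effect of a deletion in N-lim less its effect in C-lim was tested as an interaction. It is positive where a deletion lowered a gene more in C-lim or raised it more in N-lim. Over all members 17 interactions were positive and 5 negative in snf1Δtor1Δ (17.9% and 28.8% of all genes), and 17 were positive and 5 negative in snf1Δ (16.2% and 31.0% of all genes). All 8 heat-inducible genes had a positive one in both strains, with medians of 1.48 in snf1Δtor1Δ and 1.99 in snf1Δ, and SSA3 reached 4.10 ± 0.30 and 5.01 ± 0.30 there. Those of HSP30, SSE2, SSA4 and HSP42 in snf1Δ were 2.39 ± 0.44, 2.23 ± 0.28, 2.20 ± 0.26 and 1.79 ± 0.17 (adjusted p between 9.9e-08 and 0.00021). For tor1Δ there was 1 positive interaction, HSP31 at 0.55 ± 0.12 (adjusted p = 0.038), and 0 negative, beside 0.275% and 0.697% of all genes.

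**Figure D3:**
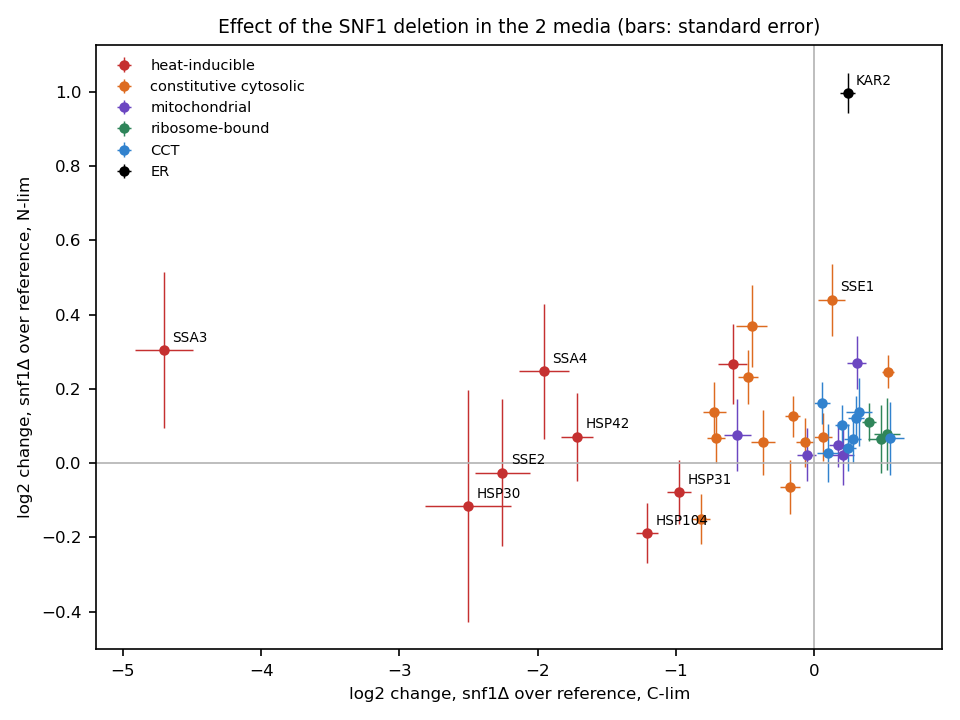
Log2 change of each chaperone gene in snf1Δ over the reference in C-lim (horizontal axis) and in N-lim (vertical axis), with standard errors as bars and colours for classes. The heat-inducible genes spread from -4.70 (SSA3) to -0.59 along the C-lim axis while staying between -0.19 and 0.30 on the N-lim axis, and KAR2 stands alone at 1.00 on the N-lim axis.

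In snf1Δ the class was not lower in N-lim as a whole. There 5 of 8 heat-inducible genes were higher in N-lim and 2 lower (32.4% and 23.0% of all genes), or 2 and 2 with the replicate number as a block. The numbers did not pair the arrays of these 2 groups, with r of -0.29 and -0.21 in the 2 pairs of equal number. The block is therefore a weak check here. HSP104 had 11.60, 11.53 and 11.60 in N-lim snf1Δ, against 11.02, 11.15 and 10.96 in C-lim snf1Δ, with no overlap, as for 64.7% of all genes. It changed by 0.53 ± 0.08 (adjusted p = 1.7e-05), opposite in sign to the reference. SSA4, HSP82 and HSP42 were higher by 0.51 ± 0.18, 0.39 ± 0.11 and 0.35 ± 0.12, calls that were lost with the replicate number as a block, whereas HSP30 and SSA3 were still lower by -1.38 ± 0.31 and -0.70 ± 0.21.

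HSP31 was higher in N-lim in all 3 deletion strains. It had 10.00, 10.17 and 10.08 in N-lim snf1Δtor1Δ, against 8.50, 8.62 and 8.35 in C-lim snf1Δtor1Δ, a change of 1.59 ± 0.09 (3.01-fold, adjusted p = 2.1e-11). The change was 0.86 ± 0.09 in snf1Δ and 0.51 ± 0.09 in tor1Δ, both called. It was the one heat-inducible gene that lay lower in C-lim snf1Δtor1Δ than in C-lim snf1Δ, at -0.40 ± 0.09 (adjusted p = 0.0038). In N-lim tor1Δ its values of 10.08, 10.24 and 10.26 lay above the reference values of 9.76, 9.87 and 9.86, a difference of 0.37 ± 0.09 (adjusted p = 0.023). Both this call and the medium interaction of tor1Δ were lost without replicate 10 or 11 of N-lim tor1Δ and without any 1 of the 3 N-lim reference arrays. The interaction was also lost without any 1 of the C-lim tor1Δ arrays, without replicate 9 or 11 of the C-lim reference and without any of several arrays of the strains lacking SNF1.

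In C-lim most heat-inducible genes lay higher in snf1Δtor1Δ than in snf1Δ, and lower than in the reference. Against snf1Δ, snf1Δtor1Δ had 15 chaperone genes higher and 1 lower in C-lim (10.8% and 6.44% of all genes), and 2 higher and 0 lower in N-lim (7.51% and 3.1% of all genes), where 0 were lower at an unadjusted p under 0.05 and the 2 were HSP31 and YDJ1. Of the heat-inducible class 7 of 8 were higher in C-lim, with a median of 0.68 beside 0.03 for all genes. SSA3 had 8.62, 8.66 and 8.24 in C-lim snf1Δtor1Δ, against 8.05, 7.18 and 7.17 in C-lim snf1Δ, a difference of 1.04 ± 0.21 (2.06-fold, adjusted p = 0.0024). HSP104 had 11.78, 11.80 and 11.60 in C-lim snf1Δtor1Δ, against 11.02, 11.15 and 10.96 in C-lim snf1Δ, a difference of 0.68 ± 0.08 (adjusted p = 2.4e-05). HSP30 was higher by 1.25 ± 0.31, SSA4 by 0.84 ± 0.18, SSE2 by 0.68 ± 0.20, HSP82 by 0.59 ± 0.11 and HSP42 by 0.56 ± 0.12. Against the reference, 7 of 8 remained lower in C-lim snf1Δtor1Δ, with a median of -1.21, and HSP82 stood at 0.00 ± 0.11. With only the 2 groups in the fit, 7 chaperone genes were called in C-lim in place of 16, and leaving out replicate 3 of C-lim snf1Δtor1Δ, which was low for this class, moved the class median to 0.76.

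Whether the double deletion differed from the sum of the single ones was tested as a genetic interaction. In C-lim 4 chaperone genes had a positive one and 0 a negative one (2.88% and 2.86% of all genes). At an unadjusted p under 0.05 in limma, 14 were positive and 0 negative, a threshold to which these all-gene shares do not apply. The 4 called genes were SSA3 at 1.23 ± 0.30 (adjusted p = 0.018), HSP104 at 0.65 ± 0.11 (0.0022), SIS1 at 0.51 ± 0.09 (0.0036) and the Hsp90 co-chaperone gene CPR6 at 0.65 ± 0.16 (0.018). The count depended on single arrays: it was 13 without replicate 10 of the C-lim reference and 11 without replicate 3 of C-lim snf1Δtor1Δ, both low for the heat-inducible class. It was 2 without replicate 7 of C-lim tor1Δ, also low for that class, and 2 without replicate 1 or 2 of C-lim snf1Δtor1Δ. Of the heat-inducible class 2 were called, against 7 without replicate 10 of the reference or replicate 3 of snf1Δtor1Δ, 1 without replicate 7 of tor1Δ and 5 without replicate 9 of N-lim tor1Δ. The count over all members was 8 without that replicate and 1 with only the 4 groups in the fit, and HSP104 was the gene called in every alternative. In N-lim 0 were positive and 0 negative (0.587% and 0.11% of all genes), also 0 in limma at an unadjusted p under 0.05. Against tor1Δ, snf1Δtor1Δ had 13 genes higher and 12 lower in C-lim (37.3% and 18.7% of all genes), and 12 higher and 0 lower in N-lim (21.7% and 11.8% of all genes), with 1 lower at an unadjusted p under 0.05 and 7 higher and 1 lower after median-centring. The lower genes in C-lim included 7 of 8 heat-inducible genes, from -3.47 ± 0.21 for SSA3 to -0.56 ± 0.08 for HSP104.

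The single deletion of TOR1 gave the heat-inducible class 1 call in the 2 media together, HSP31 in N-lim. Without replicate 10 of the C-lim reference, HSP31 was also called lower in C-lim tor1Δ, at -0.30 (adjusted p = 0.025), against -0.18 with all arrays. In C-lim the differences ran from -0.27 for SSE2 to 0.09 for HSP82, and the 95% interval of the SSA3 difference was -0.63 to 0.25. For HSP104 the interval was -0.14 to 0.20, which is narrow beside its fall of 1.21 in snf1Δ. In N-lim the class median was 0.25, or 0.13 without replicate 9 of tor1Δ. The HSP30 difference in N-lim was 0.70, which became 0.17 without that array. The fit shares 1 spread over all groups, so the HSP30 difference of 0.64 between N-lim snf1Δtor1Δ and the N-lim reference, which was not called, had an adjusted p of 0.011 in limma without it.

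**Figure D4:**
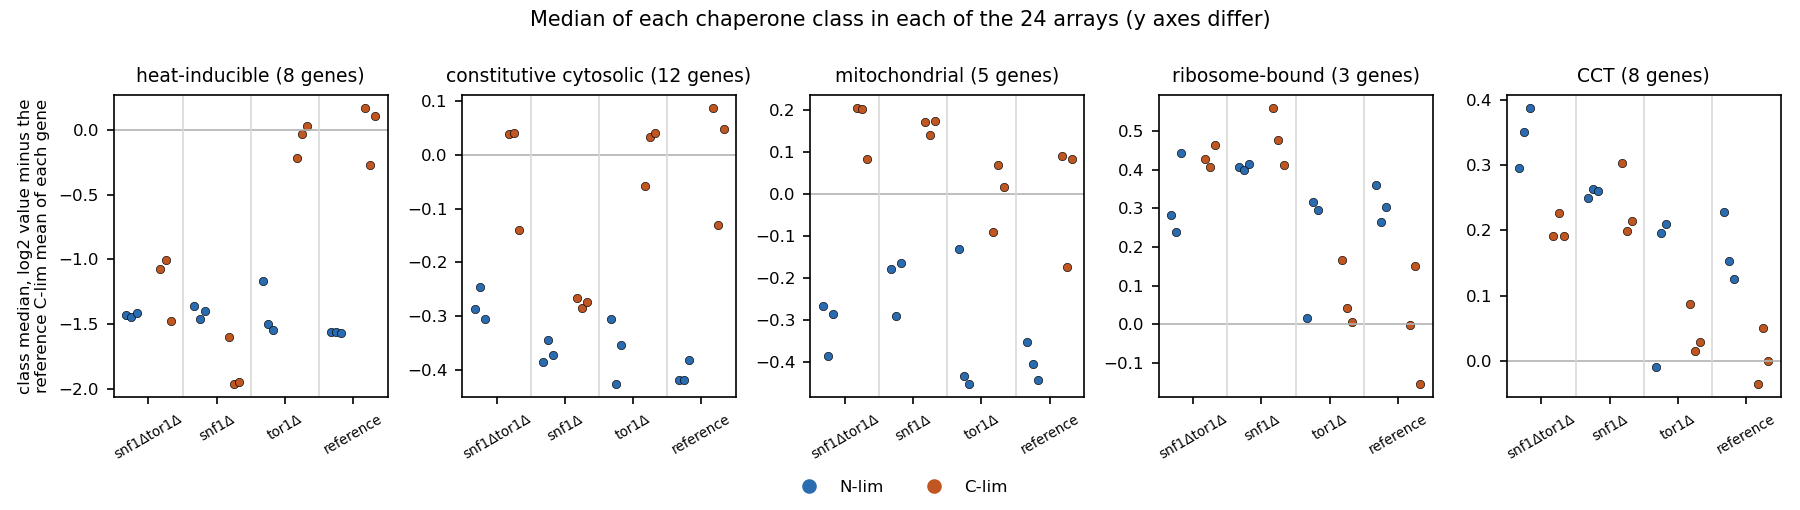
Median over each class (vertical axis, log2 value minus the C-lim reference mean of each gene) in each of the 24 arrays (points), N-lim left in blue and C-lim right in orange within each strain. The heat-inducible medians lie between -0.27 and 0.17 in C-lim tor1Δ and reference and at -1.01 or below in all other arrays, and the ribosome-bound medians of both C-lim groups without SNF1 lie at 0.41 or above. In N-lim the ribosome-bound medians lie at 0.40 to 0.42 in snf1Δ and at 0.24 to 0.44 in snf1Δtor1Δ.

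Most constitutive cytosolic genes were lower in N-lim in the reference and in C-lim snf1Δ, and SSA2 was the one gene called higher in both comparisons. In N-lim reference cultures 1 of 12 was higher and 9 lower than in C-lim (41.5% and 25.7% of all genes), with a median of -0.40. In C-lim snf1Δ 1 was higher and 8 lower than in the C-lim reference (40.5% and 21.6% of all genes), with a median of -0.27. In C-lim snf1Δtor1Δ 3 were higher and 4 lower than in the C-lim reference (42.7% and 18.8% of all genes), with a median of -0.02, and SSE1 was among the higher ones at 0.35 ± 0.10. The Hsp90 co-chaperone STI1, which links Hsp70 to Hsp90, had 11.29, 11.30 and 11.10 in N-lim reference cultures, against 12.42, 12.18 and 12.33 in C-lim reference cultures, a change of -1.08 ± 0.08 (adjusted p = 1.2e-09). FES1, an Hsp70 exchange factor, changed by -0.87 ± 0.07, CPR6, a cyclophilin of the Hsp90 complex, by -0.83 ± 0.11, and AHA1, which stimulates the Hsp90 ATPase, by -0.74 ± 0.09. SIS1, an essential J-domain protein and a known target of Hsf1, had 10.81, 10.83 and 10.85 in C-lim snf1Δ, against 11.74, 11.52 and 11.69 in the C-lim reference, with no overlap, as for 61.6% of all genes. This was a change of -0.82 ± 0.07 (adjusted p = 7.6e-09). The J-domain protein YDJ1 changed by only -0.15 ± 0.05 in the same comparison, and HSC82, the constitutive Hsp90 gene, at -0.07, and CDC37, which brings kinases to Hsp90, at 0.06, were without a call. SBA1, the p23 co-chaperone of Hsp90, was lower by small amounts, at -0.20 ± 0.07 in N-lim against C-lim reference cultures and -0.18 ± 0.07 in C-lim snf1Δ against the C-lim reference.

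In N-lim snf1Δtor1Δ 7 of 12 constitutive genes were higher and 0 lower than in the N-lim reference (23.9% and 16.4% of all genes), with a median of 0.21. The exchange factor SSE1 had 11.98, 11.83 and 11.99 in N-lim snf1Δtor1Δ, against 11.40, 11.23 and 11.41 in the N-lim reference, a difference of 0.59 ± 0.10 (adjusted p = 0.00011). CPR6 was higher by 0.54 ± 0.11, FES1 by 0.41 ± 0.07 and YDJ1 by 0.34 ± 0.05. In N-lim snf1Δ 4 of 12 were higher and 0 lower than in the N-lim reference (14.1% and 17.0% of all genes), namely SSE1, CPR6, SSA2 and FES1, by 0.44, 0.37, 0.25 and 0.23. In C-lim, snf1Δtor1Δ was higher than snf1Δ at 7 of 12 (10.8% of all genes), among them CPR6 by 0.58 ± 0.11 and SIS1 by 0.48 ± 0.07. Median-centred arrays changed the N-lim count in snf1Δtor1Δ to 5 higher and 1 lower.

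The close paralogs SSA1 and SSA2, the main constitutive Hsp70 genes of the cytosol, changed in opposite directions from the C-lim reference to N-lim reference and C-lim snf1Δ cultures. SSA2 had 12.49, 12.42 and 12.44 in N-lim reference cultures, against 11.92, 11.87 and 11.86 in C-lim reference cultures, a rise of 0.57 ± 0.04 (adjusted p = 1.4e-09). SSA1 had 11.89, 12 and 11.81 in N-lim reference cultures, against 12.64, 12.42 and 12.59 in C-lim reference cultures, a fall of -0.65 ± 0.07 (adjusted p = 9e-08). Neither pair of groups overlapped, as for 67.4% of all genes. In C-lim snf1Δ the split was alike, with 12.45, 12.45 and 12.35 for SSA2, a change of 0.53 ± 0.04 from the C-lim reference, and 11.80, 11.92 and 11.80 for SSA1, a change of -0.71 ± 0.07. SSA2 was higher than the reference in N-lim and C-lim in snf1Δtor1Δ (0.35 ± 0.04 and 0.73 ± 0.04), whereas SSA1 was called lower in C-lim snf1Δtor1Δ (-0.47 ± 0.07) and not called in N-lim. Within snf1Δ both means were higher in N-lim than in C-lim, at 11.97 against 11.84 for SSA1 and 12.70 against 12.42 for SSA2. Such near-identical genes, likewise SSB1 with SSB2 and HSP82 with HSC82, can share signal through cross-hybridization, so their separate sizes are uncertain.

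**Figure D5:**
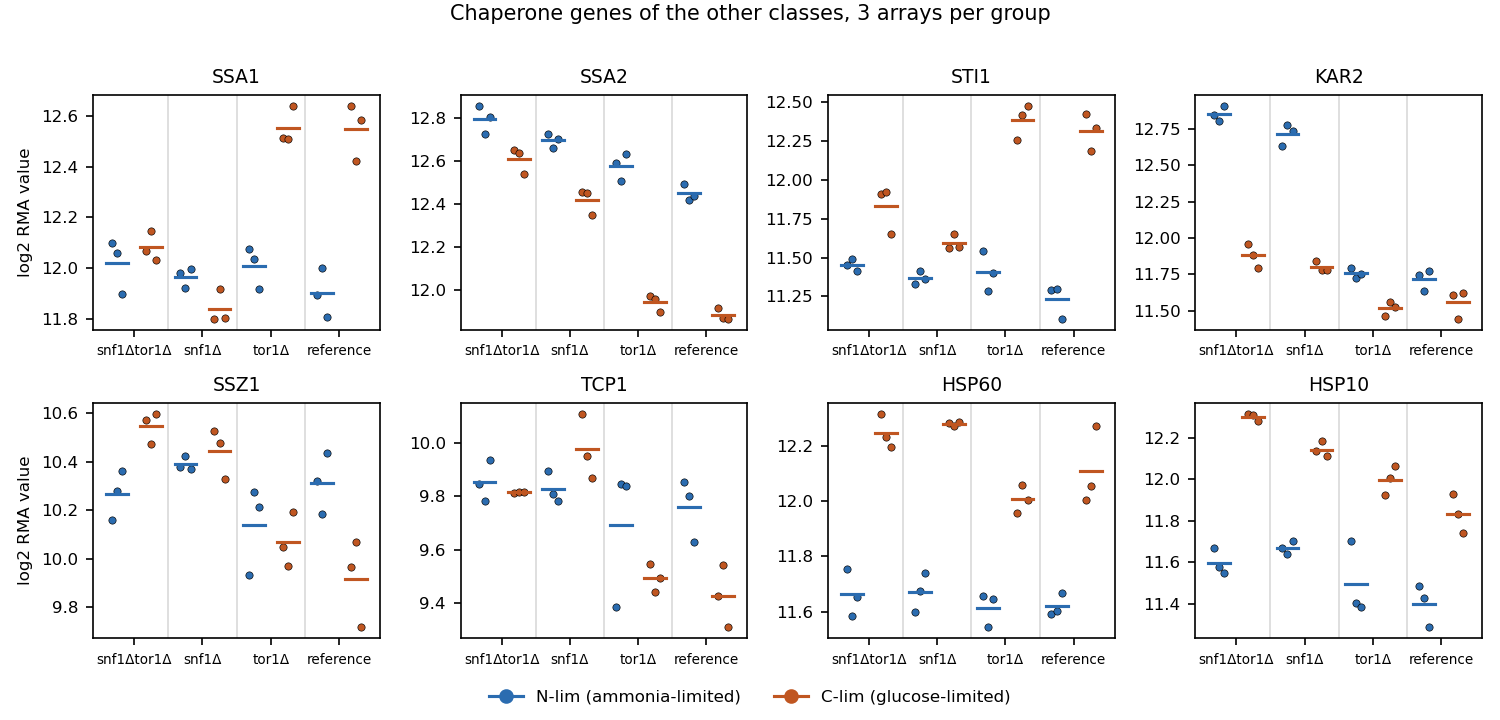
Log2 RMA value (vertical axis) of 8 chaperone genes outside the heat-inducible class in the 3 arrays (points) of each strain, N-lim left in blue and C-lim right in orange, with lines at group means and a vertical axis of its own per gene. SSA1 and SSA2 run in opposite directions in the reference, and KAR2 is at 12.63 or above in the N-lim arrays without SNF1 and at 11.96 or below in all others.

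Most mitochondrial chaperones were lower in N-lim in every strain. Of 5 genes, 4 were lower in snf1Δtor1Δ, 4 in snf1Δ, 3 in tor1Δ and 4 in the reference, and 0 were higher, with medians of -0.58, -0.46, -0.39 and -0.43. Of all genes 23.2%, 23.0%, 27.5% and 25.7% were lower in these comparisons, with all-gene medians of 0.06, 0.04, 0.05 and 0.08. HSP60, the chaperonin of the matrix, had 11.60, 11.67 and 11.74 in N-lim snf1Δ, against 12.28, 12.27 and 12.29 in C-lim snf1Δ, a change of -0.61 ± 0.06 (adjusted p = 9.6e-08), beside -0.49 ± 0.06 in the reference. Its lid HSP10 changed by -0.70 ± 0.07 in snf1Δtor1Δ, -0.47 ± 0.07 in snf1Δ, -0.50 ± 0.07 in tor1Δ and -0.43 ± 0.07 in the reference. Neither gene had a called interaction of snf1Δ with the medium. SSC1, the Hsp70 that pulls imported proteins into the matrix, fell in 3 strains, by 0.51 in snf1Δtor1Δ, 0.42 in snf1Δ and 0.23 in the reference, and its J-domain partner MDJ1 was called in none of the 4.

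HSP78, the disaggregase of the matrix, was the mitochondrial member that was lower both in N-lim and in C-lim snf1Δ. It had 9.56, 9.70 and 9.58 in N-lim reference cultures, against 10.80, 10.53 and 10.78 in C-lim reference cultures, a change of -1.09 ± 0.10 (adjusted p = 1.3e-08). In C-lim snf1Δ its values of 10.15, 10.20 and 10.10 lay below those of the reference, by -0.55 ± 0.10 (adjusted p = 7.9e-05), whereas HSP10, SSC1 and HSP60 were higher there by 0.31 ± 0.07, 0.21 ± 0.08 and 0.17 ± 0.06. The medium interaction of HSP78 in snf1Δ was 0.63 ± 0.14 (adjusted p = 0.001). Without replicate 10 of the reference, 1 of the 3 higher calls was left, and 1 was left after median-centring.

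The ribosome-bound Hsp70 genes were higher in N-lim in the reference, and in C-lim in the strains without SNF1. SSB1 and SSB2 encode nearly identical Hsp70 proteins that bind nascent chains, and SSZ1 their atypical partner in the ribosome-associated complex. All 3 were higher in N-lim reference cultures than in C-lim reference cultures, with a median of 0.34, and all 3 were higher than the C-lim reference in C-lim snf1Δtor1Δ (median 0.43) and C-lim snf1Δ (median 0.48). Of all genes 41.5%, 42.7% and 40.5% were higher in these comparisons. In the first of them, median-centred arrays left 3 higher calls among the chaperone genes of all classes, in place of 9. SSZ1 had 10.53, 10.48 and 10.33 in C-lim snf1Δ, against 9.97, 10.07 and 9.72 in the C-lim reference, with no overlap, as for 61.6% of all genes, and a difference of 0.53 ± 0.10 (1.44-fold, adjusted p = 0.00012). SSB2 was higher there by 0.48 ± 0.09 and SSB1 by 0.40 ± 0.05. In N-lim against C-lim tor1Δ the median was 0.11 and none was called in limma, with 1 of 3 higher at an unadjusted p under 0.05. In N-lim none of the 3 was called in snf1Δtor1Δ or snf1Δ, although 1 in each was higher at an unadjusted p under 0.05 in limma, and all 3 interactions with the medium were negative in both strains, with medians of -0.43 and -0.42. SSB1 was read from a probe set that may also detect SSB2. Its other probe set averaged 12.38 ± 0.07 in C-lim snf1Δ and 11.75 ± 0.17 in the C-lim reference (SD, n = 3 each), the same direction. It differed elsewhere. In the reference its N-lim arrays (11.83 to 11.96) overlapped its C-lim arrays (11.62 to 11.95). In N-lim it averaged 12.12 in snf1Δtor1Δ and 12.15 in snf1Δ, against 11.88 in the reference, with no overlap. The same held for 49.6% and 51.2% of all genes in these comparisons. This probe set was not tested on its own.

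Most of the 8 CCT subunits were higher by small amounts in C-lim in the strains without SNF1. Of these 6 were higher and 0 lower in C-lim snf1Δtor1Δ and again 6 and 0 in C-lim snf1Δ, with medians of 0.20 and 0.26 beside 0.13 and 0.10 for all genes. Of all genes 42.7% and 40.5% were higher there. TCP1, subunit alpha of the ring, had 10.11, 9.95 and 9.87 in C-lim snf1Δ, against 9.43, 9.54 and 9.31 in the C-lim reference, with no overlap, as for 61.6% of all genes, and a difference of 0.55 ± 0.10 (adjusted p = 9.5e-05). CCT6, CCT4, CCT3, CCT8 and CCT5 were higher by 0.33, 0.30, 0.28, 0.24 and 0.20, whereas CCT7 and CCT2 were not called. With median-centred arrays 6 remained called in snf1Δ and 2 in snf1Δtor1Δ. In the reference 4 of 8 were higher in N-lim (TCP1, CCT3, CCT5 and CCT8, by 0.15 to 0.34), beside 41.5% of all genes. None of these calls was left with median-centred arrays. With the replicate number as a block, CCT8 was no longer called (adjusted p = 0.077), whereas CDC37, which brings kinases to Hsp90, was called higher in N-lim at 0.11 (adjusted p = 0.039) in the reference and at 0.14 (adjusted p = 0.011) in snf1Δtor1Δ. In tor1Δ 3 of 8 were higher in N-lim than in C-lim, beside 37.4% of all genes, and 1 to 5 with 1 array left out: 1 without replicate 11 of N-lim tor1Δ, 2 without replicate 10 of N-lim or replicate 9 of C-lim tor1Δ and 5 without replicate 9 of N-lim tor1Δ. Against the N-lim reference 5 were higher in N-lim snf1Δtor1Δ, beside 23.9% of all genes, and 2 to 5 with 1 array left out, 2 without replicate 3 of N-lim snf1Δtor1Δ and 3 without its replicate 2 or without replicate 10 or 11 of the N-lim reference. In N-lim snf1Δ 1 was higher, CCT2, beside 14.1% of all genes.

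KAR2, the Hsp70 of the endoplasmic reticulum and a standard reporter of the unfolded protein response, was higher in N-lim in the strains without SNF1. It had 12.84, 12.80 and 12.90 in N-lim snf1Δtor1Δ and 12.63, 12.78 and 12.74 in N-lim snf1Δ, against 11.75, 11.64 and 11.77 in the N-lim reference. These were differences of 1.13 ± 0.05 (2.19-fold, adjusted p = 2.7e-11) and 1.00 ± 0.05 (1.99-fold, adjusted p = 2.3e-10). In C-lim the differences were 0.32 ± 0.05 and 0.24 ± 0.05, and the interactions with the medium were 0.81 ± 0.08 and 0.75 ± 0.08. In N-lim tor1Δ it had 11.80, 11.72 and 11.75, overlapping the reference, and was not called. The change in N-lim against C-lim was 0.97 in snf1Δtor1Δ, 0.91 in snf1Δ, 0.24 in tor1Δ and 0.16 in the reference, and the last of these was not called with median-centred arrays.

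Most other chaperones of the endoplasmic reticulum were higher in the same cultures. Of 12 further genes, 10 were higher and 0 lower than the N-lim reference in both N-lim snf1Δtor1Δ and N-lim snf1Δ, with medians of 1.25 and 1.13. Of all genes 23.9% and 14.1% were higher there. SIL1, an exchange factor of Kar2, was higher by 1.77 ± 0.08 and 1.74 ± 0.08, ERO1, the oxidase of disulfide bond formation, by 1.91 ± 0.14 and 1.73 ± 0.14, in that pair of strains. EUG1, a protein disulfide isomerase, was higher in N-lim snf1Δ by 1.62 ± 0.07. The rise was not confined to these cultures. SIL1 averaged 7.88 in C-lim snf1Δtor1Δ, 8.04 in C-lim snf1Δ and 8.11 in the N-lim reference, against 6.93 in the C-lim reference. The transcript of HAC1, the factor of the unfolded protein response, which is regulated by splicing, was higher in N-lim snf1Δtor1Δ and N-lim snf1Δ by 0.58 and 0.51, and in C-lim by 0.86 and 0.56.

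Other stress chaperones were lower in C-lim snf1Δ as well. Of 5 further genes, 0 were higher and 5 lower in C-lim snf1Δ than in the C-lim reference, with a median of -0.96. HSP26, a small heat shock protein, had 11.83, 11.37 and 11.36 in C-lim snf1Δ, against 13.56, 13.56 and 13.61 in the C-lim reference, a change of -2.06. The others were SNO4 (-1.68), the sequestrase BTN2 (-0.96), the J-domain protein APJ1 (-0.82) and CUR1 (-0.52). In the same comparison, 1 of 5 other ribosome-bound chaperones was higher, ZUO1 by 0.52, the J-domain partner of SSZ1, and 0 were lower. Of 7 prefoldin genes and CCT cofactors 4 were higher and 0 lower, including PAC10 (0.80), GIM3 (0.78), YKE2 (0.61) and PLP2 (0.27). Among 9 other mitochondrial chaperones 4 were higher and 0 lower, among 6 other Hsp90 co-chaperones 2 and 0, and among 8 other Hsp70 co-chaperones 5 and 0, beside 40.5% of all genes higher and 21.6% lower.

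Of the factors that act on stress genes, the HSF1 transcript was lower, the MSN4 transcript higher and MSN2 not called in C-lim snf1Δ. HSF1 had 7.60, 7.53 and 7.63 in C-lim snf1Δ, against 7.95, 7.72 and 8.06 in the C-lim reference, a change of -0.33 ± 0.09 (adjusted p = 0.0029). In the reference it was higher in N-lim by 0.26 ± 0.09, the medium in which most of the heat-inducible genes were lower. MSN2 differed by 0.03 ± 0.06 in C-lim snf1Δ, without a call. MSN4 had 6.61, 6.37 and 6.28 in C-lim snf1Δ, against 4.95, 5.18 and 5.08 in the C-lim reference, a rise of 1.35 ± 0.10 (adjusted p = 1.4e-09), and in N-lim it fell by 1.10 in snf1Δ. The MSN4 and SSA3 transcripts thus changed in opposite directions in C-lim snf1Δ, and a transcript level does not show the activity of its factor.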

How the data were processed

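Total RNA of 24 chemostat cultures was labelled with biotin and hybridized to 1 Affymetrix array each, per the labels' protocols. The authors deposited log2 values, for which the submitters' processing notes name RMA and affy. Their versions, and which arrays were normalized together, are not given here. Groups came from titles and genotype labels.

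Of 5716 probe sets, 5498 had 1 gene in the platform table, 0 had several and 218 none. For 47 genes the brightest of several probe sets was used, leaving 5449 genes. 12 symbols were updated from RefSeq (R64). Each gene was fitted as 8 group means with limma 3.58.1 in R 4.3.3 (16 residual degrees of freedom, 1.71 from the prior). The 19 comparisons were each adjusted by Benjamini-Hochberg over all genes with a threshold of 0.05. The scripts were tested on simulated data. Comparisons that share a group share its chance deviations.

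All 37 members may be named. Of 8 further lists (57 of 60 genes found), up to 3 genes with the largest change in a comparison, all genes where a count is 5 or fewer, and HSF1, MSN2 and MSN4 are named. SIL1, ERO1 and EUG1 hold the largest changes in N-lim. Members and lists were chosen with earlier results of these data known. All 37 members lay above the 25th percentile of the gene means.

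Arrays of equal replicate number deviated together (r over 0.1 in each of 3 pairs) in N-lim and C-lim reference (0.23 to 0.37), N-lim and C-lim snf1Δtor1Δ (0.12 to 0.20) and N-lim snf1Δ and reference (0.17 to 0.28), and were taken as paired there. Equal numbers also went together between the C-lim reference and N-lim snf1Δ (0.26 to 0.39) or N-lim tor1Δ (0.23 to 0.40), groups that meet only in the medium interactions. Alternatives were a replicate block, other scalings, filters, probe set rules, variance models and samples, and leaving out each array. Promoter motifs and protein identities were planned and were not run, since no sequences were used here.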

Additional observations from a re-analysis of the deposited data

Results flagged for a closer look

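Effects that differed between media or genotypes by a limma interaction test were set aside for a second look, and each rests on 3 arrays a group. In snf1Δtor1Δ 22 chaperone genes had an effect that differed between N-lim and C-lim, among them SSA3 (4.10), HSP30 (1.90), SSE2 (1.75), HSP31 (1.62), SSA4 (1.34) and HSP42 (1.21), with the size given as the N-lim effect minus the C-lim effect on the log2 scale. In snf1Δ the count was also 22, among them SSA3 (5.01), HSP30 (2.39), SSE2 (2.23), SSA4 (2.20), HSP42 (1.79) and HSP104 (1.02), and all 22 calls of snf1Δ held in every alternative that was run. In tor1Δ the count was 1, HSP31 (0.55). The deletions did not add up in C-lim for 4 genes: SSA3 (1.23), CPR6 (0.65), HSP104 (0.65) and SIS1 (0.51). Both counts of 22 held 17 positive and 5 negative effects. The medium interaction was positive in 17.9% and negative in 28.8% of all genes for snf1Δtor1Δ, and 16.2% and 31.0% for snf1Δ. For tor1Δ the shares were 0.275% and 0.697%, and for the genetic interaction in C-lim 2.88% and 2.86%. Groups of 3 arrays are too small for a test of single outlying arrays.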

How the results depend on the processing

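No call reversed its sign under any alternative: of 22200 gene values recomputed, 349 lost a call and 214 gained one. Counts of called chaperone genes stayed within 1.5 times for the 4 comparisons of N-lim with C-lim, for snf1Δ and snf1Δtor1Δ against the reference in C-lim, for snf1Δtor1Δ against the reference in N-lim and against tor1Δ in both media, and for the medium interactions of snf1Δ and snf1Δtor1Δ. The smaller counts moved, and the cause was not tested. The genetic interaction in C-lim had 4, against 8 with median-centred arrays, 8 without dim genes, 8 with a variance trend and robust prior, 1 with only its own groups, and 2 to 13 with 1 array left out. With only the groups of the comparison, snf1Δ against reference in N-lim had 11 in place of 7, snf1Δtor1Δ against snf1Δ 7 in place of 16 in C-lim and 4 in place of 2 in N-lim, and both tor1Δ counts of 1 became 0. With median-centred arrays snf1Δtor1Δ against snf1Δ in N-lim had 0. Apart from CCT8 and CDC37 in N-lim against C-lim, the replicate block changed no chaperone call in the 3 comparisons whose numbers pair the arrays. In the other comparisons the numbers did not pair the arrays of all groups. Over all 33 pairs of equal number the median r was 0.20 and 22 were over 0.1. For unequal numbers the median was -0.04 and 60 of 219 were over 0.1. The negative pairs of equal number involve C-lim snf1Δ. With the replicate block, tor1Δ against reference in N-lim and the medium interaction of tor1Δ had 0 in place of 1, and the heat-inducible genes called higher in N-lim snf1Δ were 2 in place of 5. The fixed block could be fitted for 11 of 19 comparisons, and the random block had a correlation of 0.045. With 1 array left out, the counts ranged from 10 to 18 for snf1Δtor1Δ against snf1Δ in C-lim, 0 to 4 for the same in N-lim, 0 to 1 for tor1Δ against reference in C-lim, 0 to 1 in N-lim, and 0 to 1 for its medium interaction. The 3 arrays per group limit what small changes can show.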

Other observations

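The prefoldin genes GIM3 and PAC10, whose complex hands actin and tubulin to the CCT ring, were higher in N-lim reference cultures than in C-lim reference cultures by 0.70 and 0.78 on the log2 scale, and in C-lim snf1Δ than in the C-lim reference by 0.78 and 0.80. PAM18, a J-domain protein of the mitochondrial import motor, fell in N-lim in all 4 strains, by 0.86 in snf1Δtor1Δ, 0.83 in snf1Δ, 0.45 in tor1Δ and 0.38 in the reference. BTN2 was higher in N-lim snf1Δtor1Δ and N-lim snf1Δ than in the N-lim reference, by 1.25 and 1.02, although the other 4 genes of its list were not called there.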
